A study of Mus musculus with 14 samples.

Results

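Whole skin of wild-type (WT) mice was set against cultured fibroblasts carrying a transfected WT copy of Col3a1, the gene of the type III collagen chain, to describe what separates the tissue from the cells. The arrays were chosen by their labels alone, as all skin samples of WT genotype and all fibroblast samples titled as wild-type transfections, which gave 7 of the 14 arrays of the series. The series as a whole concerns the Tsk2 allele of Col3a1, and its Tsk2 arrays were left out here. Each array compared RNA of 1 sample, labelled with Cy5, with a universal mouse reference RNA labelled with Cy3, and no dyes were swapped. The WT skin group held 4 arrays of total skin RNA from WT mice, all female and 4 weeks old, whose skin was kept in RNALater and extracted with a Qiagen Rneasy mini fibrous kit. The WT-Col3a1 fibroblast group held 3 arrays, numbered 1, 3A and 3B, of fibroblasts from Col3a1 knockout mice transfected with WT Col3a1 and extracted with a Clonetech RNA Purification kit. All fibroblasts thus lacked their own working Col3a1, whereas the mice carried theirs. Tissue, genotype, culture, transfection and extraction kit cannot be told apart in this design, as no untransfected culture was among these arrays. The labels give neither the strain nor the body site of the skin, nor the origin, age or passage of the fibroblasts, and they do not say that the fibroblast samples came from separate cultures, so p-values measure only the spread between these samples.

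Skin is layered. Keratinocytes of the epidermis divide in the basal layer, move up through the spinous layer and end as dead cornified cells, and the same lineage builds hair follicles and sebaceous glands. Beneath lie a dermis of fibroblasts and their collagen, with vessels, nerves and immune cells, then fat and a thin sheet of striated muscle. Fibroblasts grown on plastic are a single cell type away from those neighbours and from tissue matrix. In bulk RNA, fewer cells of a type and less RNA per cell cannot be told apart, which holds for every gene below.

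All values are log2 ratios of a sample to the reference RNA, so 0 means the reference level, and a difference is the skin mean minus the fibroblast mean. A ratio says nothing of how strongly one gene is expressed beside another. The base of the logarithm is not stated and was taken as 2. Pearson's r over genes was 0.79 to 0.886 between skin arrays, 0.896 to 0.899 between fibroblast arrays and 0.189 to 0.231 across the groups, and arrays 3A and 3B were no more alike than the rest, at 0.899. On each array 36.5% to 46% of probes held a value repeated at least 50 times, called a repeated value below. Olfactory receptor genes, which neither skin nor fibroblasts should use, had 89.5% of values repeated in skin and 83.3% in fibroblasts. Where a gene's values were mostly repeated in 1 group, the size of its difference is uncertain and no fold is given. WT skin replicate 2 had 12391 values of exactly 0, against at most 3907 on any other of these arrays.

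Col3a1 itself was higher in skin. Averaged over its 3 probes it read 1.14, 1.80, 1.20 and 2.22 in skin and -2.30, -2.39 and -2.24 in fibroblasts, with a difference of 3.90 ± 0.28 (SE). The probes disagreed in size. The first read 2.75, 2.99, 2.89 and 3.96 in skin and -4.96, -4.87 and -4.89 in fibroblasts, the next 1.24, 2.42, 1.28 and 2.06 in skin and -1.95, -1.43 and -1.68 in fibroblasts, and the last held repeated values on all 7 arrays. All skin arrays were above the reference and all fibroblast arrays below it on the first probes, with differences of 8.05 and 3.44. Which stretch of the transcript each probe reads was not given, so no statement on the transfected copy can be drawn from them.

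Epithelial and myeloid markers were low in the fibroblasts, while markers of fibroblasts themselves are given further below. Epcam, an adhesion protein of epithelia, read 0.79, 0.66, 1.11 and 0.59 in skin and -4.67, -3.94 and -3.76 in fibroblasts, and Cdh1, the cadherin of epithelial junctions, 6.33, 6.15, 6.32 and 5.56 in skin and -1.34, -0.90 and -1.30 in fibroblasts. Ctss, a lysosomal protease of macrophages, read -6.99, -6.88 and -7.13 and Tyrobp, an adaptor of myeloid receptors, -3.96, -4.07 and -4.0. The fibroblasts thus read below the reference on all of these. Xist, the RNA of the inactive X chromosome, read 1.92, 2.51, 1.86 and 1.80 in skin and 0.03, 0.28 and 0.06 in fibroblasts, and its call beyond 2-fold was lost without fibroblast replicate 1 or 3B (differences of 1.74 to 1.98 over the arrays left out in turn). Of 6 sex-linked genes measured, 1 was higher in skin beyond 2-fold and 0 were lower. Whether the groups differ in sex was not tested.

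Of 19532 genes tested, 4293 (22%) were higher in skin and 3641 (18.6%) were lower at an adjusted p under 0.05 by limma with Benjamini-Hochberg adjustment. Since so many genes differed, a stricter call is used below. It asks, by limma's treat, for a difference beyond 2-fold, and 1508 genes (7.72%) were higher and 757 (3.88%) lower by it, so 66.6% of the called genes were higher in skin. With quantile normalization between arrays the counts were 1366 higher and 1186 lower, and the share higher was 53.5%. The median difference over all genes was 0.01 (-0.07 with quantile normalization), and skin and fibroblast arrays did not overlap for 9543 genes (48.9%). In what follows a gene called higher or lower passed the stricter call, and list medians are to be read beside that median and those percentages. Lists of skin structures lay to the high side almost throughout, whereas interferon and inflammatory lists lay to the low side.

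**Figure D1:**
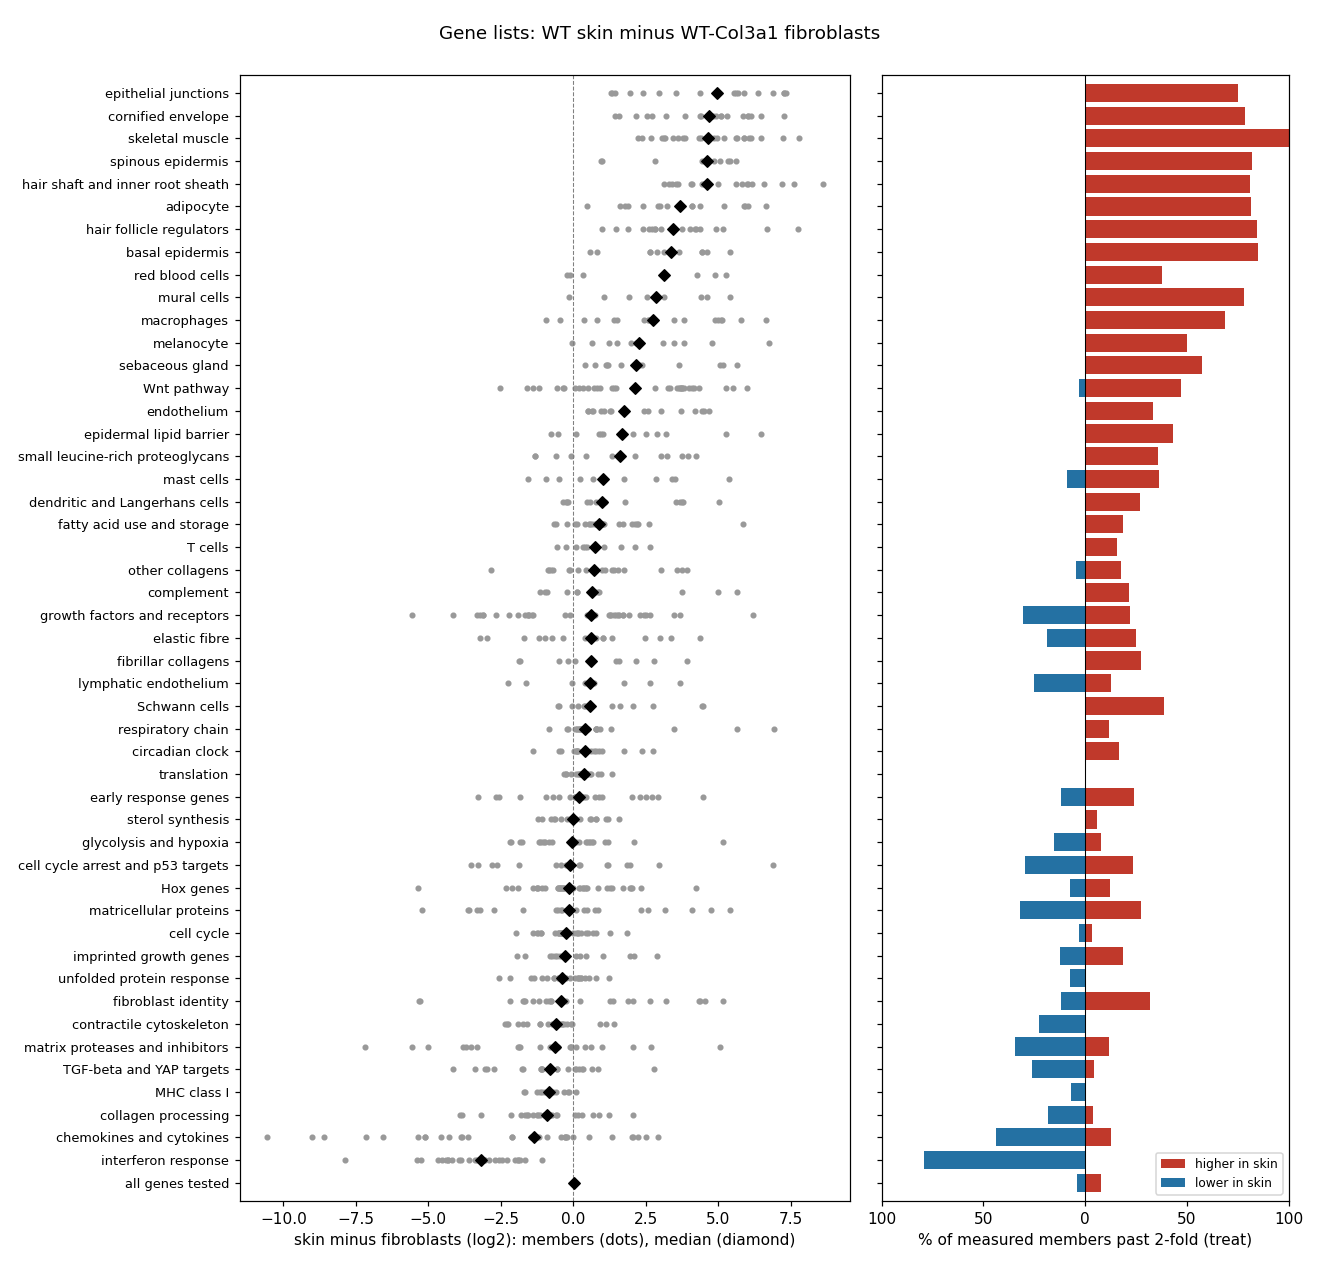
The left panel shows, for each gene list, the median skin minus fibroblast difference (log2, large points) and the differences of its members, with all genes tested as a row of their own. The right panel shows the percent of measured members called higher (red) or lower (blue) in skin beyond 2-fold by limma's treat; skeletal muscle has 24 of 24 members called higher and the interferon response 23 of 29 called lower.

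The epidermis stood out in skin from its basal to its cornified layer. In the basal layer 11 of 13 measured genes were higher (median difference 3.35), in the spinous layer 9 of 11 (4.62) and in the cornified envelope 18 of 23 (4.68). Krt14, the keratin of basal cells, read 3.63, 3.79, 3.71 and 3.28 in skin and -1.13, -0.75 and -1.17 in fibroblasts. Krt15, a keratin of basal and follicle stem cells, read 4.03, 3.94, 3.92 and 3.71 in skin and -1.61, -1.77 and -1.14 in fibroblasts. Both had every skin array well above the reference and every fibroblast array below it, with differences of 4.62 ± 0.18 and 5.40 ± 0.18 (SE; adjusted p = 1.52e-05 and 8.15e-06 by limma's treat). Trp63, the transcription factor that sets up stratified epithelium, differed by 3.14, the hemidesmosome genes Itgb4 and Col17a1 by 3.35 and 4.45, and Lamb3, a chain of the laminin beneath basal cells, by 3.41.

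Above the basal layer, Sbsn, a secreted protein of suprabasal keratinocytes, read 4.89, 4.67, 4.70 and 4.47 in skin and -0.81, -1.05 and -0.92 in fibroblasts. Dmkn, dermokine, secreted by the same layers, read 4.31, 4.68, 4.15 and 3.80 in skin and -1.29, -1.23 and -0.80 in fibroblasts. For both genes the skin arrays lay close together and far above the fibroblasts, with differences of 5.61 and 5.34. The spinous keratins Krt1 and Krt10 differed by 2.82 and 4.54, and Notch3, a receptor of differentiating keratinocytes and of mural cells, by 4.62. Lor, the loricrin that makes up much of the cornified envelope, read 6.65, 6.12, 6.33 and 5.93 in skin and 1.62, 2.40 and 1.62 in fibroblasts, so it lay above the reference in both groups and still differed by 4.38 ± 0.26 (SE). Spink5, the inhibitor of kallikreins whose loss causes Netherton syndrome, read 7.39, 8.28, 7.21 and 6.07 in skin, and Flg2, a filaggrin-like protein, 6.43, 6.86, 6.26 and 5.47, against repeated values on all fibroblast arrays for both. Ivl, involucrin, behaved otherwise: it read 5.27, 5.34, 5.11 and 4.11 in skin and 3.41, 3.37 and 3.43 in fibroblasts, apart but not called beyond 2-fold (difference 1.55), and only without skin replicate 4 was it called. In the cornified list 2.72% of skin values and 61.4% of fibroblast values were repeated, so the sizes there are uncertain on the fibroblast side.

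Barrier lipids and cell junctions followed. Of 14 genes for the lipids between cornified cells, 6 were higher (median 1.68), with Elovl4, which makes very long chain fatty acids, at 6.06, 6.70, 6.35 and 6.28 in skin and 1.04, 0.99 and 1.25 in fibroblasts. The lipoxygenase Alox12b did not pass the stricter call, at 1.81, 1.78, 1.49 and 1.41 in skin and 0.95, 0.46 and 0.61 in fibroblasts. Its 2 probes went opposite ways, with differences of -0.45 and 2.34. Abca12 of the same list was not called either, at 2.23, 0, 2.59 and 2.10 in skin (difference 1.65). Replicate 2 was listed at 0, and most skin values and all fibroblast values of Abca12 were repeated. The list count was 8 without skin replicate 2 and 4 with quantile normalization. Of 20 junction genes, 15 were higher (median 4.96). Cdh1, whose values stand above, had a difference of 7.27 ± 0.23 (SE) or 154-fold (adjusted p = 5.43e-06 by limma's treat). Pkp1, a plakophilin of desmosomes, read 4.33, 4.56, 4.37 and 3.89 in skin and -2.97, -3.02 and -2.95 in fibroblasts, or 154-fold. Perp, a desmosome protein that is also a p53 target, read 6.52, 6.15, 6.48 and 6.17 in skin and -0.40, -0.63 and -0.63 in fibroblasts. In each of these genes every skin array was well above the reference and every fibroblast array below it.

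Hair genes gave some of the widest gaps of the comparison. Of 21 genes of the hair shaft and inner root sheath, 17 were higher (median 4.61), with 3.57% of values repeated in skin and 71.4% in fibroblasts. Krt33a, a hair shaft keratin, read 10.01, 9.26, 10.23 and 6.77 in skin, and Krt71, an inner root sheath keratin, 7.08, 6.27, 7.03 and 6.32, both against repeated values in all fibroblasts. Padi3, the deiminase that modifies trichohyalin, read 5.62, 5.62, 5.61 and 4.01 in skin and -2.64, 0 and -4.55 in fibroblasts. Skin replicate 4 was the lowest skin array in both Krt33a and Padi3. The transcription factors of the follicle were high too, with 16 of 19 regulators higher (median 3.44). Lhx2, which maintains follicle stem cells, read 4.23, 4.33, 4.33 and 4.32 in skin and -2.79, -3.71 and -3.79 in fibroblasts, with skin arrays almost identical, and differed by 7.73 ± 0.25 (SE). Gata3, a factor of the inner root sheath, read 3.28, 3.28, 3.19 and 3.19 in skin and -3.94, -3.12 and -3.22 in fibroblasts. Hoxc13, which drives hair keratin genes, read 3.12, 2.70, 3.14 and 2.04 in skin and -2.05, -0.86 and -1.55 in fibroblasts. None of these 3 had a repeated value on any array.

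Glands and pigment cells were present in skin. Of 14 sebaceous genes, 8 were higher (median 2.17). Far2 was not called (difference 1.17). Ptgds, a prostaglandin D synthase, read 3.63, 4.25, 3.67 and 2.33 in skin and -1.55, -1.36 and -1.81 in fibroblasts, and Scd3, a desaturase of the sebaceous gland in mouse, 1.43, 1.94, 1.26 and 1.43 in skin and -0.65, -0.72 and -0.83 in fibroblasts. Of 12 melanocyte genes, 6 were higher (median 2.25), and the count was 3 without skin replicate 1, without fibroblast replicate 3A or 3B, or with 3A and 3B averaged. Dct, an enzyme of melanin synthesis, read 7.27, 7.06, 7.18 and 6.19 in skin, against repeated values in fibroblasts. Tyrp1, the next enzyme of that pathway, read 7.15, 0, 6.88 and 6.32 in skin, where replicate 2 was listed at 0, and 0.17, 0.31 and 0.46 in fibroblasts, and it was called only without that array, with its zero as missing or with array weights. Tyr, which starts the pathway, read 0.88, 0.30, 1.41 and 0.56 in skin and 0.26, 0.14 and 0.05 in fibroblasts and was not called.

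Fat and striated muscle genes were higher in skin. Of 16 fat cell genes, 13 were higher (median 3.66), and of 24 skeletal muscle genes, all 24 were (median 4.63). Slc2a4, the insulin-responsive glucose transporter of fat and muscle, read 4.85, 5.06, 4.59 and 5.07 in skin and -1.19, -0.93 and -0.99 in fibroblasts. Adipoq, the fat hormone adiponectin, read 6.0, 5.75, 5.72 and 4.90 in skin against repeated values in fibroblasts. The skin arrays were high and even for both. Myl1, a fast muscle myosin light chain, read 5.11, 5.08, 5.09 and 4.63 in skin and -2.78, -3.11 and -2.53 in fibroblasts, a 221-fold difference (adjusted p = 3.60e-06 by limma's treat). Tnnt3 and Tnni2, fast muscle troponins, differed by 7.23 and 6.46, with fibroblast means of -2.07 and -2.20. Muscle forms of mitochondrial and glycolytic enzymes moved with them. Cox6a2, a muscle subunit of cytochrome oxidase, read 1.29, 1.57, 1.14 and 1.61 in skin and -4.20, -4.40 and -4.14 in fibroblasts, and Pgam2, the muscle phosphoglycerate mutase, 3.06, 3.0, 2.79 and 3.23 in skin and -2.11, -2.12 and -2.20 in fibroblasts.

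**Figure D2:**
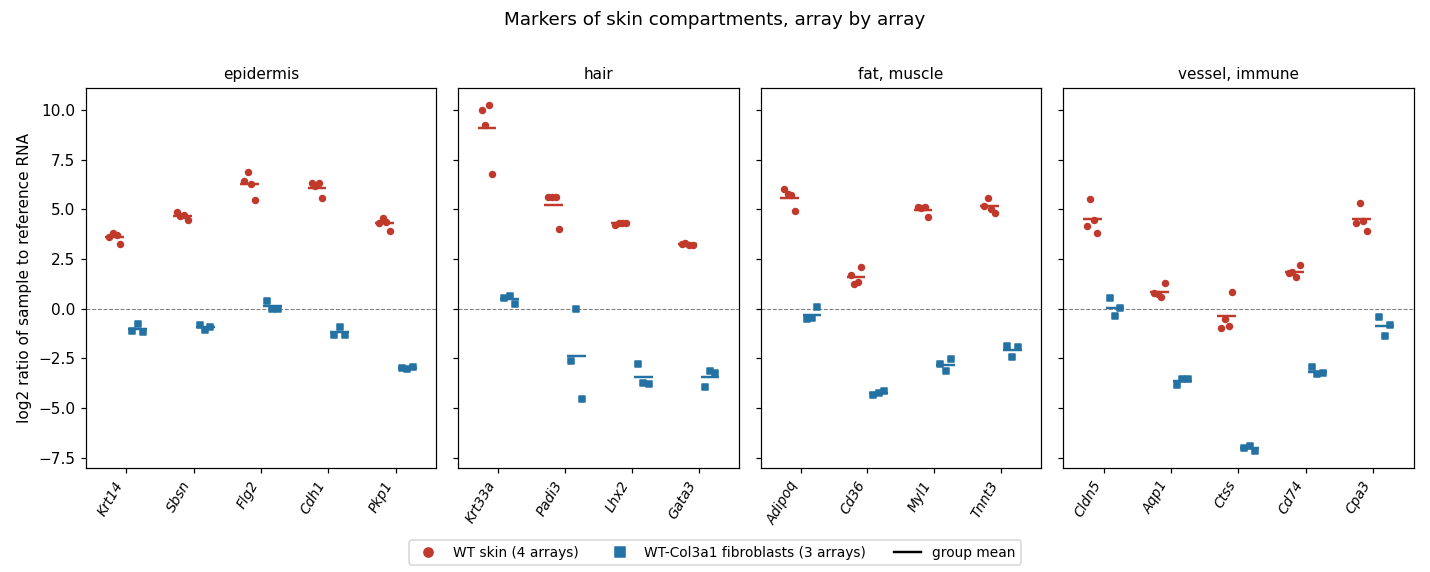
Log2 ratio to the reference RNA of markers of skin compartments on each array, with WT skin in red and WT-Col3a1 fibroblasts in blue and a line at each group mean. Every skin array lies above every fibroblast array for each marker shown, with Cdh1 at a mean of 6.09 in skin and -1.18 in fibroblasts. The markers are a selection, and list members that overlap or go the other way are not shown. Over all genes tested, 48.9% had no overlap.

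Vessels, nerves and blood were also read in skin, less evenly. Of 18 endothelial genes, 6 were higher (median 1.75). Aqp1, a water channel of vessel walls, read 0.81, 0.73, 0.62 and 1.29 in skin and -3.81, -3.55 and -3.51 in fibroblasts, and Ramp2, a co-receptor for adrenomedullin, 4.07, 4.50, 4.04 and 4.11 in skin and -0.70, -0.58 and -0.17 in fibroblasts, with no overlap. Cldn5, a claudin of endothelial junctions, read 4.15, 5.53, 4.48 and 3.81 in skin against repeated values in fibroblasts. The classical marker Pecam1 was not called, at 0.04, -0.04, 0.14 and 0.47 in skin and -0.83, -0.96 and -0.93 in fibroblasts with repeated values in both groups. Cdh5 of the same list was not called either, with a difference of 1.82. It read 3.32, 1.13, 3.42 and 3.26 in skin, with replicate 2 the low one, and 0.77, 0.66 and 1.46 in fibroblasts. Emcn, another surface protein of endothelium, read 4.37, 0, 3.87 and 4.16 in skin, with replicate 2 at 0, and was called only without that array, with its zero as missing or with array weights. Of 9 genes of pericytes and vascular muscle, 7 were higher (median 2.83), with Des, desmin, which striated muscle also makes, at 2.37, 2.50, 2.26 and 2.99 in skin and -2.91, -2.83 and -2.81 in fibroblasts. The lymphatic list gave 1 higher and 2 lower of 8, and its lower members were Sema3a, an axon guidance molecule, and Flt4, a receptor for lymphatic growth factors, at repeated values in skin and 1.64, 1.80 and 1.62 in fibroblasts. These counts were unsteady, with 2 higher without skin replicate 2 or 4 or without repeated-value probes, 3 higher with the most variable probe, and 2 higher and 0 lower with exact zeros as missing. Of 13 Schwann cell genes 5 were higher, a count that was 2 or 3 without skin replicate 3 or any 1 fibroblast array, or with 3A and 3B averaged. Among red cell genes 3 of 8 were higher, and Hba-a1, an alpha globin with a near-identical copy in Hba-a2, read 3.91, 4.43, 4.01 and 3.35 in skin and -1.17, -1.33 and -1.53 in fibroblasts.

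Among the immune lists, macrophage genes had the largest share called higher in skin. Of 19 of them 13 were higher (median 2.75). Csf1r of this list was not called, at -0.34, 0.04, -0.01 and 0.92 in skin and -1.45, -1.19 and -1.37 in fibroblasts. Its 3 probes disagreed, with differences from 0.12 to 2.98 and repeated values in both groups, so the size for Csf1r is uncertain. Ctss read -0.97, -0.50, -0.87 and 0.84 in skin, against the fibroblast values near -7 given above, a difference of 6.63 ± 0.43 (SE). Tyrobp read 0.55, 1.34, 0.60 and 1.76 in skin, and Cd163, a scavenger receptor of tissue macrophages, 4.84, 5.18, 4.98 and 4.52, with repeated values in fibroblasts for Cd163. Skin replicate 4 was the highest skin array for Ctss and Tyrobp. Cd74, the invariant chain of class II antigen presentation, read 1.82, 1.84, 1.62 and 2.18 in skin and -2.95, -3.30 and -3.25 in fibroblasts, and 4 of 15 dendritic and Langerhans genes were higher. Cd207 of that list was not called, at 2.39, 5.99, 3.16 and 2.84 in skin against repeated values in fibroblasts. Of 11 mast cell genes 4 were higher, among them the granule protease Cpa3 at 4.32, 5.32, 4.43 and 3.93 in skin, and 1 was lower. That was Gata2, a factor of mast and endothelial cells, at -1.45, -1.63, -1.42 and -1.04 in skin and 0.14, 0.14 and 0.31 in fibroblasts, and its call was lost without any 1 fibroblast array, without skin replicate 1, 2 or 3 (-1.69 to -1.50 over the arrays left out in turn), with 3A and 3B averaged or with the most variable probe. T cell genes gave 2 of 13 higher, Cd3d and Cd3g, both chains of the T cell receptor complex, and Cd3g read below the reference in skin too, at -1.37, -1.76, -1.38 and -1.61, against -3.61, -3.68 and -3.70 in fibroblasts. Cd3e and Cd247 of that list were not called, with differences of -0.25 and 0.47 and repeated values in both groups.

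The rule for the widest gaps, which left out genes with repeated values in the group where they were higher, gave further names, several of them epithelial. It also gave Clec10a, a member of none of the lists, at 6.42, 6.66, 6.15 and 6.43 in skin and a difference of 7.70. Grhl1, a grainyhead factor of epidermis and hair, read 6.91, 7.09, 7.10 and 6.38 in skin and -2.45, -2.05 and -2.22 in fibroblasts and differed by 9.11 ± 0.21 (SE). Celsr1, a cadherin that orients hair follicles, read 3.97, 3.89, 3.72 and 3.32 in skin and -5.12, -4.67 and -4.58 in fibroblasts, or 365-fold. Lsr, a protein of tricellular junctions, read 5.18, 5.19, 5.02 and 4.43 in skin and -2.75, -2.72 and -2.80 in fibroblasts, or 210-fold. In each the skin arrays lay close together, far from the fibroblasts. Fbp1, an enzyme of glucose synthesis, differed by 8.53, Ly6d, a surface protein of stratified epithelium, by 7.37, and Slc7a8, an amino acid transporter, by 7.49. Prr9, a proline-rich protein, read 9.34, 10.36, 9.27 and 7.02 in skin, against repeated values in fibroblasts.

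On the other side, the widest gaps were in inflammatory genes, which were lower in skin. Of 32 measured chemokines, cytokines and related inflammatory genes, 14 were lower and 4 higher (median -1.35). Cxcl5, a chemokine that attracts neutrophils, read -6.12, -8.17, -6.98 and -6.91 in skin and 3.89, 3.31 and 3.32 in fibroblasts. All skin arrays lay far below the reference and all fibroblast arrays above it, a 1499-fold gap (difference -10.55 ± 0.45, SE; adjusted p = 1.40e-05 by limma's treat). Ptgs2, the inducible cyclooxygenase of prostaglandin synthesis, read -4.17, -5.51, -4.18 and -4.58 in skin and 4.45, 4.35 and 4.43 in fibroblasts, or 519-fold. Cxcl1, a further neutrophil chemokine, read -5.69, -6.83, -5.84 and -6.88 in skin and 2.48, 2.21 and 2.17 in fibroblasts, or 387-fold. Il6, a cytokine of the acute response, read -3.36, -4.62, -2.94 and -3.79 in skin and 3.49, 3.50 and 3.39 in fibroblasts, or 141-fold. The groups were well apart in all 4 genes and no value was repeated.

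The monocyte chemokines followed the same direction. Ccl2 read -2.32, -1.88, -2.14 and -2.66 in skin and 2.97, 3.03 and 2.55 in fibroblasts, and Ccl7 -2.39, -1.09, -2.57 and -1.70 in skin and 4.86, 4.60 and 4.39 in fibroblasts. Ccl5, which attracts T cells, fell by 5.35 in skin relative to fibroblasts. The 4 members that were higher in skin are known from epithelium or resident immune cells. Ccl27a, a keratinocyte chemokine, read 3.33, 3.46, 3.35 and 2.67 in skin and 0.66, 0.72 and 0.69 in fibroblasts, Il34, a growth factor for Langerhans cells, 2.08, 1.94, 2.03 and 2.27 in skin and -0.98, -0.82 and -0.70 in fibroblasts, and Il18, a cytokine stored by keratinocytes, 1.76, 1.95, 1.67 and 1.73 in skin and -0.43, -0.55 and -0.41 in fibroblasts. Cxcl14, a chemokine of healthy skin, was above the reference in both groups (difference 2.01), and its call was lost without fibroblast replicate 3A or 3B (1.93 to 2.21 over the arrays left out in turn), with 3A and 3B averaged, with quantile normalization and with a variance trend. Cxcl12, a chemokine of stroma, did not separate the groups, at -1.17, -1.15, -0.98 and -1.78 in skin and -0.98, -1.01 and -1.0 in fibroblasts. The mean over all 19 macrophage genes was 0.49, 1.13, 0.56 and 1.48 on the skin arrays, against -1.97, -1.98 and -2.07 on the fibroblast arrays. In that list 35.1% of fibroblast values were repeated. Which cells made the chemokine RNA was not tested.

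The interferon response was lower in skin as a whole. Of 29 measured interferon-induced genes 23 were lower beyond 2-fold, against 3.88% of all genes tested. All 29 were lower at the plain threshold, against 18.6% of all genes. The arrays of the groups overlapped for none of them, where 48.9% of all genes had no overlap, and the median difference was -3.17. Ifit1, an antiviral protein that binds viral RNA, read -0.82, -0.35, -1.85 and 0.36 in skin and 4.77, 4.67 and 4.69 in fibroblasts. Isg15, a ubiquitin-like modifier, read -1.14, -0.11, -1.20 and 0.24 in skin and 3.35, 3.38 and 3.27 in fibroblasts. Cxcl10, an interferon-induced chemokine, read -0.77, -0.08, -1.02 and -0.79 in skin and 4.49, 4.63 and 4.70 in fibroblasts. Skin scattered around or below the reference, while the fibroblast arrays lay close together and far above it. The differences were -5.38 ± 0.47, -3.89 ± 0.37 and -5.27 ± 0.23 (SE). Irf7, the factor that amplifies the response, fell by 4.53, Usp18, which removes Isg15 from proteins, by 4.68, and Ifi202b, a DNA-binding interferon gene, by 7.88. Antigen presentation by MHC class I, which interferon also induces, gave 1 of 14 genes lower beyond 2-fold, 9 at the plain threshold and a median of -0.86. The count beyond 2-fold was 0 without skin replicate 3, without any 1 fibroblast array or with 3A and 3B averaged, and 2 or 3 without skin replicate 4, with quantile normalization, exact zeros as missing, array weights, the most variable probe or repeated-value probes left out. B2m, the light chain of class I, read -0.80, -0.25, -0.89 and -0.18 in skin and 0.69, 0.81 and 0.73 in fibroblasts. Its 3 probes disagreed in direction, with differences from -2.34 to 0.61.

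Promoter sequences of RefSeq (GRCm38.p6, 250 bases before to 50 after each start) were searched on both strands for 3 short motifs, given here as letters with free bases between them. The interferon motif was GAAA, any 2 bases and GAAA again, and the kappaB motif was GGG, any 3 bases and TTCC. The interferon motif was found in 14 of 22 interferon genes with a promoter (63.6%), against 603 of 15534 tested genes with one (3.88%), and in 2 of 23 chemokine and cytokine genes (8.7%). The kappaB motif was found in 6 of 23 chemokine and cytokine genes (26.1%) and 6 of 22 interferon genes (27.3%), against 1006 of all (6.48%). No skeletal muscle promoter of 17 held either. A match describes letters in the window and is no evidence that a factor binds there. Stretches of promoters of genes whose values stand above are shown because they join the sequence to genes with wide gaps, with each match in capitals.
Ifit1, interferon motif, chr19:34640779-34640838, plus strand: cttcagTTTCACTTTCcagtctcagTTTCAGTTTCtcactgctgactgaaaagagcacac
Isg15, interferon motif, chr4:156200850-156200909, minus strand: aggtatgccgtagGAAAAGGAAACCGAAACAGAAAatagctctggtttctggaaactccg
Cxcl10, interferon motif, chr5:92349068-92349127, minus strand: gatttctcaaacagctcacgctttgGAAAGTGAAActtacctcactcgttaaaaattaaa
Cxcl1, kappaB motif, chr5:90891150-90891209, plus strand: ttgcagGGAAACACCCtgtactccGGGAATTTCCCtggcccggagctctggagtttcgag
Il6, kappaB motif, chr5:30013045-30013104, plus strand: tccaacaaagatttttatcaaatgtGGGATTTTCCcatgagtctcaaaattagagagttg
Ifit1 shows 2 matches in its stretch, and Isg15 and Cxcl1 show 3 each, some of which overlap and run together.

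Several proteases that degrade matrix were also lower in skin. Of 26 proteases and inhibitors, 9 were lower and 3 higher (median -0.62). Mmp13, a collagenase, read -2.87, -4.77, -3.58 and -4.70 in skin and 2.77, 3.51 and 3.30 in fibroblasts, or 144-fold. Mmp3, stromelysin, read -0.65, -0.46, -0.49 and 0.47 in skin and 2.74, 3.58 and 3.49 in fibroblasts, or 11.7-fold. Timp1, an inhibitor of these enzymes, read -2.65, -2.71, -2.46 and -2.68 in skin and 2.40, 2.39 and 2.41 in fibroblasts, or 32.5-fold. Timp1 varied little within either group, and in all of these genes the groups were apart. Plau, urokinase, and its receptor Plaur fell by 3.33 and 3.80, Mmp9, a gelatinase, by 3.69, and Mmp10, a stromelysin, by 5.56. Mmp2, a gelatinase of resting stroma, was not called, at 0.09, 0.09, 0.19 and 0.78 in skin and 1.43, 1.55 and 1.32 in fibroblasts. The inhibitors Timp3 and Timp4 and the protease Adamts15 were the higher ones, by 2.06, 2.66 and 5.06.

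The AP-1 motif TGANTCA was found in 6 of 16 protease promoters (37.5%) and in 7 of 21 cornified envelope promoters (33.3%), against 1248 of all 15534 (8.03%). These lists lie on opposite sides of the comparison. It was also found in 8 of 22 interferon promoters (36.4%) and in 1 of 17 skeletal muscle promoters (5.88%). The promoters of Mmp13 and Mmp3 and 1 promoter of the cornified list are shown, with the match in capitals.
Mmp13, AP-1 motif, chr9:7272454-7272510, plus strand: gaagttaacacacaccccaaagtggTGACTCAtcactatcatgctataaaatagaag
Mmp3, AP-1 motif, chr9:7445751-7445807, plus strand: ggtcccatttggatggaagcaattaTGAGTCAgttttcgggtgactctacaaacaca
Flg, AP-1 motif, chr3:93273418-93273474, plus strand: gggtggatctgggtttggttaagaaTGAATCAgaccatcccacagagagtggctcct
Flg, filaggrin, which bundles keratin in cornified cells, read 5.32, 1.93, 5.59 and 5.58 in skin against repeated values in fibroblasts, and its call was lost without skin replicate 1 or fibroblast replicate 1 or 3B (differences of 4.70 to 5.98).

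**Figure D3:**
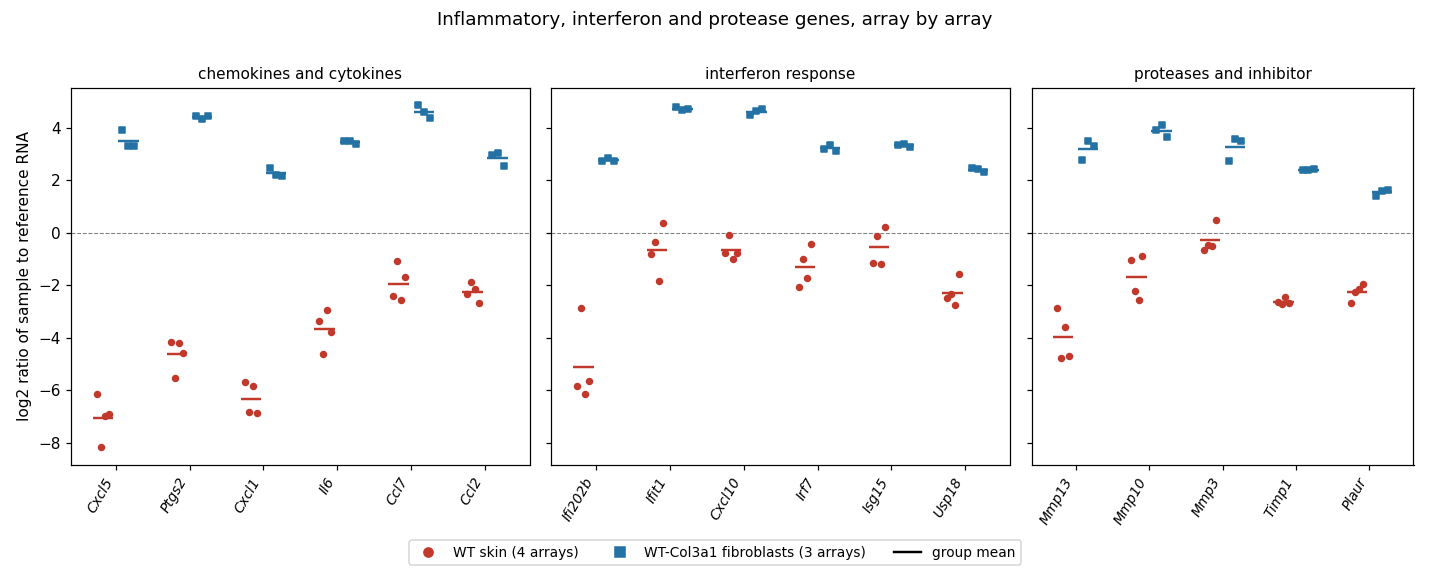
Log2 ratio to the reference RNA of chemokine and cytokine, interferon and protease genes on each array, with WT skin in red and WT-Col3a1 fibroblasts in blue and a line at each group mean. Every skin array lies below every fibroblast array for each gene shown, with Cxcl5 at a mean of -7.04 in skin and 3.51 in fibroblasts. The genes are a selection, and list members that overlap or go the other way are not shown. Over all genes tested, 48.9% had no overlap.

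Genes of contraction and of mechanical and TGF-beta signalling lay lower in skin, by less. Of 22 contractile genes 5 were lower (median -0.60), 8 with quantile normalization and 3 without fibroblast replicate 1 or 3B. Tagln, an actin-binding protein of smooth muscle and activated fibroblasts, read -0.36, -0.13, -0.31 and 0.03 in skin and 2.25, 1.99 and 1.92 in fibroblasts. Zyx, zyxin of focal adhesions, read -1.23, -0.82, -1.23 and -1.05 in skin and 1.14, 1.32 and 1.36 in fibroblasts. Acta2, smooth muscle actin and the usual myofibroblast marker, was not called, at -0.16, 0.05, 0.02 and 0.18 in skin and 0.86, 0.42 and 0.73 in fibroblasts over 5 probes. Its probes disagreed in direction, with differences from -2.12 to 0.46, so the size for Acta2 is uncertain. Of 23 TGF-beta and YAP targets 6 were lower and 1 higher (median -0.81), with 11 lower under quantile normalization. Inhba, a subunit of activin, read -1.76, -1.44, -1.79 and -1.48 in skin and 2.58, 2.47 and 2.51 in fibroblasts. Il11, a cytokine induced by TGF-beta, read -2.14, -1.42, -1.68 and -1.95 in skin and 1.53, 1.55 and 1.72 in fibroblasts. Ankrd1, a YAP target, lay below the reference in both groups and fell by 2.75. The member that was higher was Id2, an inhibitor of differentiation factors, at 0.11, 0.35, 0.34 and -0.44 in skin and -2.78, -2.61 and -2.70 in fibroblasts.

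Growth factors went both ways. Of 36 growth factors and receptors 8 were higher and 11 lower (15 and 13 with the most variable probe), and their median of 0.61 was -0.09 with quantile normalization. Fgf7, the keratinocyte growth factor made by fibroblasts, read -1.73, -2.42, -2.29 and -1.90 in skin and 3.42, 3.47 and 3.60 in fibroblasts, or 47.8-fold. Fgf10, its relative, fell by 3.12, and Grem1, a BMP inhibitor, by 3.34. Bdnf, a neurotrophin, read -3.28, -4.26, -3.08 and -3.27 in skin and 0.68, 0.68 and 0.71 in fibroblasts. Bmp7, a bone morphogenetic protein of epithelia, read 3.45, 3.60, 3.54 and 2.55 in skin and -3.08, -2.92 and -2.72 in fibroblasts, or 72.9-fold. Igf1, the main circulating and local insulin-like growth factor, read 0.91, 1.55, 0.88 and 1.27 in skin and -2.92, -2.05 and -1.98 in fibroblasts. Igf1 and Bmp7 were thus above the reference in skin only, Fgf7 and Bdnf in fibroblasts only.

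The extracellular matrix moved in both directions. Of 11 fibrillar collagens 3 were higher (median 0.59), Col3a1, Col1a1 and Col2a1, and the count was 5 when the most variable probe of a gene was used. The 3 probes of Col2a1 disagreed, with differences from -0.57 to 7.23 and repeated values in both groups, so its size is uncertain. Col1a1, a chain of type I collagen, read 2.21, 2.96, 2.49 and 3.22 in skin and 0.16, -0.08 and -0.21 in fibroblasts, with no overlap. Col1a2, its partner chain, read 0.96, 1.48, -0.16 and 1.99 in skin and -0.57, -0.37 and -0.57 in fibroblasts and was called only without skin replicate 3 or with its most variable probe. Col5a1, which nucleates collagen fibrils, did not separate the groups, at 0.05, 0.40, -0.14 and 1.08 in skin and 1.01, 0.83 and 0.72 in fibroblasts. Among 23 other collagens 4 were higher and 1 lower (median 0.72), with 10 higher by the most variable probe. Col18a1 of basement membranes read 1.24, 1.32, 1.06 and 0.89 in skin and -2.68, -2.40 and -2.27 in fibroblasts, and Col14a1, which binds fibrils, differed by 3.92. The size for Col14a1 is uncertain, as its 2 probes differed by 0.76 and 7.07 and 66.7% of its fibroblast values were repeated. Col7a1, the anchoring fibril collagen, read 2.13, 2.32, 2.30 and 3.25 in skin and 2.64, 2.68 and 2.66 in fibroblasts and was not called.

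Among enzymes that finish collagen, more were lower than higher. Of 27 of them 5 were lower and 1 higher (median -0.91), and 17 were lower at the plain threshold. The lower count was 9 without skin replicate 4 and 3 without fibroblast replicate 3A. Lox, lysyl oxidase, which cross-links collagen and elastin, read -3.32, -3.26, -3.20 and -2.01 in skin and 1.29, 0.95 and 0.67 in fibroblasts, a difference of -3.92 ± 0.35 (SE; adjusted p = 0.000724 by limma's treat). Loxl3, a related oxidase, read -1.07, -1.53, -1.75 and -0.30 in skin and 2.07, 2.07 and 1.92 in fibroblasts. Serpinh1, the collagen chaperone, was not called, and skin replicate 4 at the highest of 0.01, -0.0, -0.26 and 1.92 overlapped the fibroblasts at 1.23, 1.38 and 1.37. The higher member was Pcolce2, an enhancer of procollagen cleavage, by 2.05, and its call was lost with quantile normalization.

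Small proteoglycans that coat collagen were higher in skin in 5 of 14 cases (median 1.61), 3 with quantile normalization. Omd, osteomodulin, read 1.27, 1.34, 0.96 and 1.31 in skin and -2.76, -3.31 and -2.94 in fibroblasts. Ogn, mimecan, read -0.70, -0.25, -0.56 and -0.10 in skin and -4.40, -4.51 and -4.11 in fibroblasts, below the reference throughout yet 3.94 apart. Aspn, asporin, read 1.62, 1.68, 1.97 and 2.71 in skin and -1.80, -1.75 and -1.71 in fibroblasts. Skin replicate 4 was the highest skin array for Ogn and Aspn. Lum, lumican, was high in both groups, at 5.41, 5.79, 5.59 and 6.40 in skin and 2.40, 2.78 and 2.56 in fibroblasts. Dcn, decorin, did not separate them, at 0.93, 1.61, 1.24 and 2.81 in skin and 1.27, 1.21 and 1.21 in fibroblasts. Bgn, biglycan, differed by -1.34 without passing the stricter call, and its 2 probes differed by -2.51 and -0.16.

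**Figure D4:**
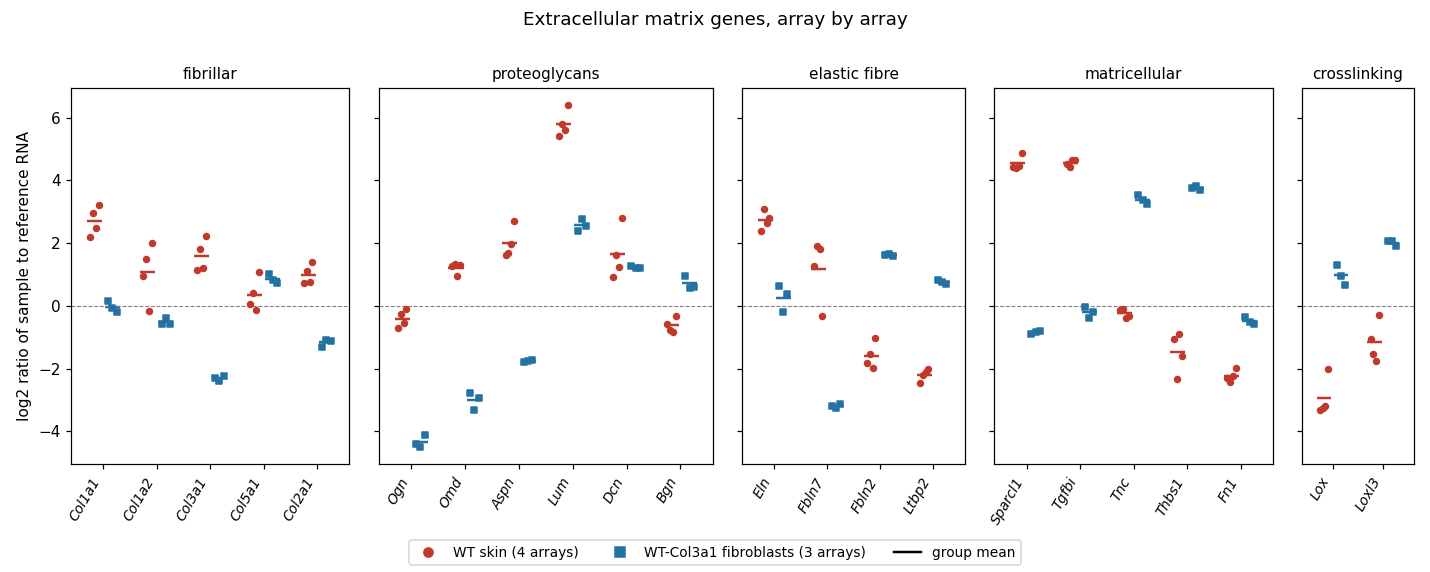
Log2 ratio to the reference RNA of extracellular matrix genes on each array, with WT skin in red and WT-Col3a1 fibroblasts in blue and a line at each group mean. The collagens shown and the proteoglycans other than Bgn lie higher in skin or overlap, Bgn, Lox and Loxl3 lie lower, and the elastic fibre and matricellular genes go both ways, as with Sparcl1 at a mean of 4.54 in skin and -0.85 in fibroblasts and Thbs1 at -1.47 in skin and 3.75 in fibroblasts.

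Elastic fibre genes split, with 4 higher and 3 lower of 16, and their median of 0.59 was -0.21 with quantile normalization. Eln, elastin, read 2.39, 3.09, 2.63 and 2.81 in skin and 0.62, -0.21 and 0.38 in fibroblasts. Ltbp4, which guides elastin assembly, read 0.87, 1.28, 0.84 and 0.96 in skin and -2.51, -2.31 and -2.30 in fibroblasts, whereas its relative Ltbp2 read -2.46, -2.19, -2.11 and -2.0 in skin and 0.84, 0.77 and 0.71 in fibroblasts. These relatives moved in opposite directions with no overlap in either. Fbln2, a fibulin of microfibrils, fell by 3.21, and Fbln7, another fibulin, differed by 4.37. Of 22 matricellular proteins 6 were higher and 7 lower, and their median of -0.16 turned to 0.05 with exact zeros as missing and 0.09 without repeated-value probes. Thbs1, thrombospondin, read -1.05, -2.33, -0.91 and -1.61 in skin and 3.75, 3.83 and 3.68 in fibroblasts. Tnc, tenascin C of healing and developing matrix, read -0.14, -0.10, -0.40 and -0.31 in skin and 3.55, 3.38 and 3.24 in fibroblasts. Ccn1 and Ccn2, matricellular YAP targets, fell by 3.60 and 2.73. Sparcl1, a relative of osteonectin, read 4.43, 4.40, 4.47 and 4.87 in skin and -0.90, -0.85 and -0.79 in fibroblasts, and Tgfbi, an adhesion protein induced by TGF-beta, 4.52, 4.41, 4.65 and 4.63 in skin and -0.03, -0.38 and -0.18 in fibroblasts. Fn1, fibronectin, fell by 1.74, while Postn, periostin, did not separate the groups, at 2.75, 1.79, 1.87 and 2.42 in skin and 2.72, 2.57 and 2.66 in fibroblasts.

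Markers of fibroblasts themselves did not fall together in the tissue. Of 25 such genes 8 were higher and 3 lower in skin (median -0.44), with 12 lower at the plain threshold and 5 to 7 beyond 2-fold under quantile normalization, without repeated-value probes, with the most variable probe, with array weights or without skin replicate 4. Twist2, a factor of dermal mesenchyme, read -1.55, -1.35, -1.48 and 0.31 in skin and 4.32, 4.38 and 4.09 in fibroblasts. Crabp1, a retinoic acid binding protein, read -2.12, -2.84, -2.42 and -2.35 in skin and 3.03, 2.91 and 2.71 in fibroblasts. En1, a homeobox factor known from dorsal dermis in mouse, read -0.30, -0.54, -0.17 and 0.08 in skin and 1.75, 1.94 and 2.18 in fibroblasts. All 3 were lower in skin on every array. Pi16 and Cd34 of this list went the other way, and which cells of skin made their RNA was not tested. Pi16 read 4.32, 4.55, 4.35 and 3.92 in skin and -1.13, -0.81 and -0.67 in fibroblasts, and Cd34 0.72, 1.27, 0.79 and 1.87 in skin and -3.23, -3.12 and -3.11 in fibroblasts. Mgp, matrix Gla protein, read 0.61, 0.60, 0.75 and 0.29 in skin and -4.28, -3.80 and -3.82 in fibroblasts, or 23.1-fold. The general markers Pdgfra, Pdgfrb, Thy1 and Vim differed by -1.67, -1.40, -1.71 and -0.78 and passed limma's plain test but not its treat test.

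Position and patterning genes gave mixed results. Of 41 Hox and limb patterning genes 5 were higher and 3 lower (median -0.14). Hoxa5, a central gene of its cluster, read 1.67, 1.38, 1.61 and 1.77 in skin and -0.25, -0.41 and -0.35 in fibroblasts, and Hoxa7 of the same cluster 2.19, 1.97, 1.96 and 2.40 in skin and -0.02, 0.11 and 0.38 in fibroblasts. Hoxc9 read -2.11, -1.91, -2.03 and -1.03 in skin and 0.62, 0.54 and 0.53 in fibroblasts. Hoxa11, a gene of the posterior end of its cluster, read -4.49, -8.27, -4.21 and -5.80 in skin and -0.54, -0.31 and -0.19 in fibroblasts, below the reference on all arrays, and its call was lost without fibroblast replicate 3B (-5.84 to -4.49 over the arrays left out in turn). Wnt genes were higher in 16 of 34 cases and lower in 1 (median 2.13). Wnt10a, a ligand of epidermis and its appendages, read 0.77, 0.61, 0.81 and 0.35 in skin and -3.74, -3.72 and -3.61 in fibroblasts. Axin2, a common readout of the pathway, read 2.65, 2.71, 2.72 and 2.63 in skin and -2.91, -2.22 and -4.77 in fibroblasts, uniform in skin and spread in fibroblasts. Dkk2, a secreted Wnt inhibitor, was the lower one, at 2.59, 3.55, 2.95 and 2.69 in skin and 5.66, 5.48 and 5.27 in fibroblasts, and 4 were lower with quantile normalization and 2 without skin replicate 2. Of 16 imprinted genes 3 were higher and 2 lower. The lower count was 0 without fibroblast replicate 1 or 3B or with 3A and 3B averaged, and 1 without skin replicate 1, 2 or 3, without fibroblast replicate 3A or with a variance trend. H19, an imprinted RNA next to Igf2, read 0.67, 0.62, 0.99 and 1.38 in skin and -2.0, -1.80 and -2.08 in fibroblasts, and Mest, another imprinted gene, 2.07, 2.13, 2.01 and 1.84 in skin and -0.09, -0.09 and -0.04 in fibroblasts.

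Growth arrest and p53 targets went both ways, with 4 higher and 5 lower of 17 (2 higher without fibroblast replicate 1 or 3B). Ccng1, a p53 target, read -1.07, -1.31, -1.42 and -0.82 in skin and 2.31, 2.03 and 2.06 in fibroblasts, and Mdm2, the ligase that p53 induces against itself, -0.97, -1.21, -0.88 and -1.14 in skin and 1.76, 1.83 and 1.67 in fibroblasts. Cdkn2a, which encodes the arrest proteins p16 and p19, read -2.95, -3.19, -3.01 and -3.54 in skin and 0.81, 0.23 and 0.02 in fibroblasts, where most values were repeated. Sesn1, also a p53 target, was higher, at 0.90, 0.56, 1.0 and 0.99 in skin and -2.45, -1.98 and -1.88 in fibroblasts. Cdkn1a, the arrest protein p21, did not separate the groups, at 1.41, 1.61, 1.30 and 0.62 in skin and 1.58, 1.46 and 1.43 in fibroblasts. Cell cycle genes gave 1 higher and 1 lower of 31 (median -0.25), Mki67 and Ccne1, with 2 lower without skin replicate 4 or repeated-value probes. Ccne1, cyclin E of the start of DNA synthesis, read -0.93, -1.0, -0.72 and -0.82 in skin and 0.97, 1.23 and 1.18 in fibroblasts. Mki67, a marker of dividing cells, read -0.57, -1.01, -0.64 and -0.18 in skin and -2.33, -2.47 and -2.54 in fibroblasts, and its call was lost without skin replicate 1 or any 1 fibroblast array (1.71 to 1.98) or with 3A and 3B averaged.

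Metabolic genes gave few calls, several of them in muscle forms of an enzyme. Of 26 glycolysis and hypoxia genes 2 were higher and 4 lower (median -0.05). Slc2a1, the widespread glucose transporter, read -3.09, -2.87, -3.12 and -3.27 in skin and -1.02, -0.94 and -0.90 in fibroblasts, and Pgam1, the widespread phosphoglycerate mutase, -2.40, -2.61, -2.37 and -2.51 in skin and -0.11, -0.31 and -0.42 in fibroblasts. The higher ones were the muscle forms Pgam2, given above, and Pfkm, by 2.08. Of 27 fatty acid genes 5 were higher (median 0.89), with Cd36, a fatty acid transporter, at 1.68, 1.22, 1.35 and 2.08 in skin and -4.35, -4.25 and -4.15 in fibroblasts, or 57-fold. Respiratory chain genes gave 3 of 26 higher, all muscle or fat forms (Cox6a2, Cox7a1 and Cox8b), and 5 with the most variable probe. Sterol synthesis gave 1 of 18 higher (median -0.0), Fdps, and 4 with the most variable probe, and 2 were lower with quantile normalization and 1 with the most variable probe. The call of Fdps was lost with quantile normalization, without fibroblast replicate 1 or 3A (1.52 to 1.62) and with 3A and 3B averaged. The translation list, 23 genes of ribosomes and elongation factors, had 0 members beyond 2-fold by limma's treat, where 1 had an unadjusted p under 0.05, and 10 were higher by limma's plain test (median 0.38).

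Stress, clock and complement genes added single members. Ddit3, a factor of the unfolded protein response, read -2.0, -2.31, -2.0 and -2.05 in skin and 0.30, 0.56 and 0.57 in fibroblasts, and Asns, asparagine synthetase, fell by 2.20, the 2 lower ones of 26 (4 with the most variable probe). The chaperone Hspa5 did not separate the groups, at -0.18, -0.20, -0.02 and -0.37 in skin and -0.12, -0.42 and -0.52 in fibroblasts. Early response genes gave 6 higher and 3 lower of 25 (3 higher with quantile normalization). Egr2, a zinc finger factor of Schwann cells and follicles, read 3.35, 3.15, 3.66 and 2.69 in skin and -1.56, -1.17 and -1.07 in fibroblasts, and Fosl1, an AP-1 subunit, -3.34, -3.40, -3.01 and -3.55 in skin and -0.11, -0.03 and 0.0 in fibroblasts. Fos and Jun were not called, with differences of 0.73 and -0.10. Of 18 clock genes 3 were higher, among them Dbp, a clock output, at -0.11, -0.13, -0.52 and 0.70 in skin and -2.36, -2.37 and -2.42 in fibroblasts. Arntl, the core activator of the clock, read 0.07, -0.19, 0.14 and -0.04 in skin and 1.53, 1.33 and 1.34 in fibroblasts and was not called except with quantile normalization or without repeated-value probes. Of 14 complement genes 3 were higher, with C4b, a component of the classical pathway, at 2.38, 2.92, 2.21 and 3.48 in skin and -1.97, -2.53 and -2.21 in fibroblasts, and Clu, clusterin, at 2.86, 3.04, 2.79 and 1.02 in skin and -3.36, -3.08 and -3.23 in fibroblasts. No complement gene was lower, except 3 with quantile normalization and 1 with the most variable probe.

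A few genes with wide gaps fell in none of these lists. Brinp3, known as a neural gene, read -2.59, -5.43, -2.98 and -2.45 in skin and 4.61, 4.59 and 4.58 in fibroblasts. Prl2c3 and Prl2c5, proliferins, near-identical copies whose probes may not tell them apart, fell by 7.02 and 7.93. Olr1, a receptor for oxidised lipoprotein, read -1.20, -2.55, -0.63 and -1.15 in skin and 5.41, 5.80 and 5.23 in fibroblasts. Foxf2, a forkhead factor of mesenchyme, read -7.72, -6.69 and -6.04 on the 3 skin arrays with a value and -0.72, -0.47 and -0.17 in fibroblasts, so it was below the reference throughout and lower still in skin.

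The mice differed among themselves more than the fibroblast arrays did, with a median SD over genes of 0.32 in skin and 0.16 in fibroblasts. Skin replicate 4 had the lowest mean over hair genes, 3.33, against 5.77, 5.81 and 5.75 in replicates 1, 2 and 3, and the lowest over cornified genes, 4.21, against 5.25, 4.98 and 5.16. It had the highest mean over fibrillar collagens, 1.43, against 0.63, 0.68 and 0.35, and over macrophage genes. The interferon list mean was -1.08, -0.43, -1.22 and -0.08 in the mice and 2.69, 2.72 and 2.72 in the fibroblasts. Krtap6-1, a keratin-associated protein of the hair shaft, read 7.10, 6.99, 7.28 and 2.45 in skin and 0.25, -0.20 and -0.48 in fibroblasts. Car6, a secreted carbonic anhydrase, read 3.69, 3.96, 4.34 and -1.74 in skin and -3.40, -3.60 and -3.35 in fibroblasts. Replicate 4 was the low mouse in both, and in Car6 it fell below the reference. The call of Krtap6-1 was lost without skin replicate 1 or 2 or any 1 fibroblast array (5.65 to 7.26), and that of Car6 without skin replicate 1, 2 or 3 or any 1 fibroblast array (5.42 to 7.44). Cfap45, a protein of cilia, read 3.18, -3.25, 3.87 and 2.16 in skin, with replicate 2 the low one, and 1.99, 1.87 and 2.01 in fibroblasts. In the fibroblasts the widest spread was in Il27ra, a cytokine receptor, at -1.11, -1.12 and 1.47, with 3B the high one, and in Axin2.

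**Figure D5:**
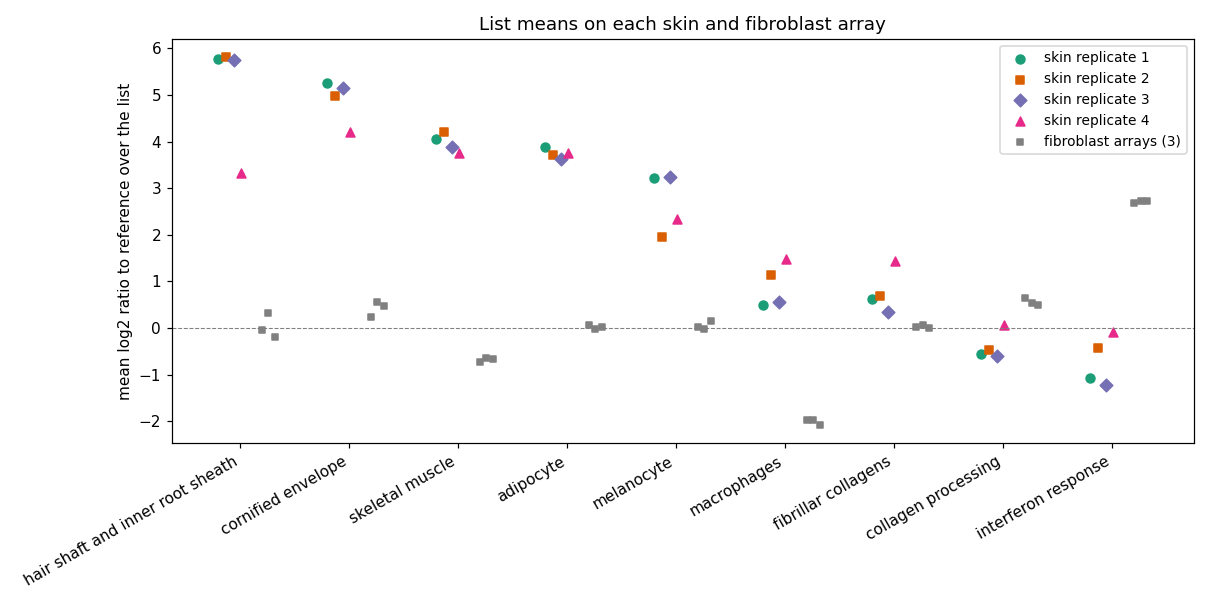
Mean log2 ratio to the reference RNA over the members of 9 gene lists for each WT skin array (coloured points) and each WT-Col3a1 fibroblast array (grey squares). Skin replicate 4 lies lowest for hair and cornified genes, at 3.33 and 4.21, and highest for macrophage genes and fibrillar collagens.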

How the data were processed

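The deposited values are log ratios of sample (Cy5) over reference (Cy3), 1 column per array, and were taken as log2; per the labels, RNA was labelled with an Agilent Quick-Amp kit. How the authors extracted features, corrected background and normalized arrays is not given in the sources used. The medians of the 7 columns ran from 0 to 0.043, which points to centring of each array, while genes kept different levels across arrays. No scanner intensities were used here, so brightness over background, slides and scan dates could not be examined, and the number of arrays limits the precision.

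Groups follow the labels, and all 4 WT mice found there were used although the design text counts fewer. The arrays held 41174 probes. The platform annotation gave 1 symbol for 32664, more than 1 for 45, and none for the other 8465, which are unnamed here. A gene's value was the mean of its probes (19532 genes, 11021 on 1 probe), and IDs of 19410 genes matched a RefSeq table, with 0 symbols changed. Genes needed values on 3 skin and 2 fibroblast arrays. Skin minus fibroblasts was tested in limma 3.58.1 (R 4.3.3) with lmFit, eBayes and, for differences beyond 2-fold, treat with a log2 bound of 1, two-sided, with Benjamini-Hochberg adjustment at 0.05 over all genes. On simulated data of 19532 genes, treat recovered 0%, 40%, 78% and 82% and eBayes 38%, 72%, 98% and 90% of genes changed by 1, 2, 3 and 4 on the log2 scale, with 0 and 14 false calls. Only 50 genes were changed at each size, whereas 40.6% of genes were called in the data at the plain threshold. The simulated noise was normal, without repeated values, so these rates do not carry over to this comparison.

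Gene lists, 50 in number with the olfactory receptors, are described by counts and medians without a list test. The members and lists were chosen with earlier results of these data known. Genes were named by rule: the 15 widest called gaps in each direction without overlap or repeated values on the high side, anchor genes of each list whatever their values, up to 4 further called members per list and direction, and the 8 genes of widest spread in each group. Not every gene that met the rule is given in the text. Alternatives were median centring, quantile normalization, exact zeros as missing, repeated-value probes left out, the most variable probe, array weights, a variance trend with robust fitting, each array left out and fibroblast arrays 3A and 3B averaged.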

Additional observations from a re-analysis of the deposited data

Results flagged for a closer look

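For 194 named genes and each list mean, the gap of the most distant mouse to its nearest neighbour was divided by the range over the 4 skin arrays. Of 243 such sets 31 passed Dixon's 95% critical value, which chance alone passes in about 1 in 20. The sets are not independent, since list means contain named genes. Some of the genes were named for their wide spread over the skin arrays, so the count cannot be read against that share. In 21 of the 31 the distant array was WT skin replicate 4, in 9 replicate 2 and in 1 replicate 1. Groups of 3 arrays, the fibroblasts, were not examined in this way.

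In 12 of these sets replicate 4 was the low array. The mean over hair shaft and inner root sheath genes was 3.33 there, against 5.75 to 5.81 in the other mice, and over hair follicle regulators 2.78, against 3.17 to 3.22. Padi3 read 4.01 (others 5.61 to 5.62), Krtap6-1 2.45 (6.98 to 7.28), Myl1 4.63 (5.08 to 5.11), Fbp1 5.68 (6.82 to 6.89), Slc7a8 3.62 (4.84 to 5.01), Bmp7 2.54 (3.45 to 3.60), Ccl27a 2.67 (3.33 to 3.46), Cxcl14 4.05 (4.76 to 4.89), Clu 1.02 (2.79 to 3.04) and Car6 -1.74 (3.69 to 4.34). In 9 sets it was the high array. The mean over other collagens was 0.83 there, against 0.51 to 0.55 in the other mice. Lox read -2.0 (others -3.32 to -3.20), Serpinh1 1.92 (-0.26 to 0), Twist2 0.31 (-1.55 to -1.35), Mmp2 0.78 (0.09 to 0.19), Mmp3 0.47 (-0.65 to -0.46), Col7a1 3.25 (2.13 to 2.32), Lamb3 2.24 (1.32 to 1.46) and Sparcl1 4.87 (4.40 to 4.47).

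Replicate 2 was the distant array for 9 sets. Emcn and Tyrp1 were listed at 0 there, against 3.87 to 4.37 and 6.32 to 7.15 in the other mice, and Flg read 1.93 (5.32 to 5.58). Bdnf read -4.26 (others -3.28 to -3.08), Ddit3 -2.31 (-2.05 to -2.0), Ifi202b -2.86 (-6.15 to -5.63), Ramp2 4.50 (4.04 to 4.11) and Xist 2.51 (1.80 to 1.92). The mean over growth factors and receptors was -0.02 in replicate 2, against 0.24 to 0.29. In replicate 1, Lhx2 read 4.23 (others 4.32 to 4.33), a gap that is small beside its difference from the fibroblasts.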

How the results depend on the processing

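Under the alternatives, 59 of the 60 recomputed counts of genes stayed within 1.5 times the count given. The exception was the number of genes lower in skin beyond 2-fold, which was 757 and became 1186 with quantile normalization between arrays, and the cause was not tested. Leaving out each array in turn gave 3431 to 4594 genes higher and 2809 to 3784 lower at the plain threshold, and 1244 to 1655 higher and 563 to 872 lower beyond 2-fold. With fibroblast arrays 3A and 3B averaged the counts beyond 2-fold were 1296 and 581, with exact zeros as missing 1583 and 764 of 17925 genes, without repeated-value probes 1686 and 881 of 16259, and with the most variable probe 2177 and 1084. For the genes named by rule, no called difference changed sign under any of these settings, and 179 of the 5619 recomputed values lost the call beyond 2-fold while 61 gained it. Of 750 recomputed list medians, 117 moved by more than the spread of the list mean between arrays of a group. No paired analysis was possible because the mice and the transfections are separate samples that share no replicate in the labels. Precision is limited by the number of arrays, and repeated values leave the size of many skin-high differences uncertain.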
